A study of Homo sapiens with 16 samples.

Results

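Chromatin at the start sites of 7 cell-cycle genes was described from ATAC-seq peak lists of a human lung fibroblast line. ATAC-seq uses a transposase to insert sequencing adapters into open DNA, so a peak marks a stretch of accessible chromatin. The genes were CCNA2, CCNB1, CDK1, PLK1, TOP2A, MKI67 and E2F1. Peaks within 5 kb of their start sites on the hg19 build were taken from each of 16 lists and merged into regions, apart for the paired-end and the single-end libraries. This gave 9 of 153040 paired-end regions, of which 7 lay at a start site and 2 flanked one. Among the single-end libraries it gave 8 of 103322 regions, 7 at a start site and 1 flanking.

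All libraries came from IMR-90 ER:Ras cells, which carry oncogenic Ras as a fusion with the oestrogen receptor. In the paired-end set, 2 libraries came from senescent cells after silencing of FOXF1 and FOXF2 (siFOXF1/2), 2 from senescent cells with knockdown of JUN-family members, 4 from senescent cells given a non-targeting siRNA (Sen), and 2 from cells given that siRNA without 4-hydroxytamoxifen (Pro). In the single-end set, 2 libraries each were of senescent cells with siRNA against p300 and CBP (sip300/CBP), of senescent cells with siRNA against the NF-kB subunit p65 (sip65), and of Sen cells. Every group but Pro had received the tamoxifen derivative at 100 nM over 6 days, which switches the Ras fusion on and drives oncogene-induced senescence. The JUN libraries are titled cJUN/JUND, while their treatment label also names JUNB. The Pro libraries are titled as proliferating but carry the cell-type label of senescent fibroblasts, and they were grouped by title and treatment. All cells stem from 1 engineered line, no label says that replicates were separate cultures, and p-values therefore measure the spread between these libraries only. Peak lists cannot show how far a knockdown went, and fibroblast markers could not be located on hg19 here.

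The 7 genes belong to the machinery that senescent cells shut down. Cyclin A2 (CCNA2) and cyclin B1 (CCNB1) activate cyclin-dependent kinases, CDK1 is the kinase that drives entry into mitosis, and PLK1 is a mitotic kinase. TOP2A untangles DNA before chromosomes separate, MKI67 encodes the proliferation marker Ki-67, which coats mitotic chromosomes, and E2F1 is a transcription factor that switches on genes of DNA replication. Genes of this kind are repressed in quiescent and senescent cells by RB family proteins and the DREAM complex, which reach promoters through E2F sites and the cell-cycle genes homology region (CHR). NF-Y binds CCAAT boxes in many of the same promoters.

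The promoter sequences of 5 members are printed to show the stretch around the start in which these motifs lie: the 4 genes whose recovered coverage was lower in Sen than in Pro libraries, and PLK1, where it was not called. Sequences are from RefSeq on GRCh38.p14 and run 5′ to 3′ from 250 bases before the start to 50 bases after it. Capitals mark matches on either strand to 3 kinds of motif. A CHR was searched as TTTGAA and also in a further form, as TTCGAA. The box bound by NF-Y was searched as CCAAT. An E2F site was searched as TTNGCGC and also, in a form with more cytosines, as TTCCCGC. CDK1 has 2 RefSeq entries and both are printed. The start of entry 2 lies 147 bases downstream of that of entry 1 on GRCh38.p14, whereas the summits below are counted from a single hg19 start, and which entry that start belongs to was not settled here.
CCNA2: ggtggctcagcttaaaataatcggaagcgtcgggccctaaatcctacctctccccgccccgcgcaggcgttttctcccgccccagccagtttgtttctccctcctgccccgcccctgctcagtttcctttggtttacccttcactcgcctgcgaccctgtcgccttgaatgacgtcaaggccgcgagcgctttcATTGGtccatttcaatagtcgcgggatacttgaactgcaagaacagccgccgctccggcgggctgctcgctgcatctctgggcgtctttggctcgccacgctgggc
CCNB1: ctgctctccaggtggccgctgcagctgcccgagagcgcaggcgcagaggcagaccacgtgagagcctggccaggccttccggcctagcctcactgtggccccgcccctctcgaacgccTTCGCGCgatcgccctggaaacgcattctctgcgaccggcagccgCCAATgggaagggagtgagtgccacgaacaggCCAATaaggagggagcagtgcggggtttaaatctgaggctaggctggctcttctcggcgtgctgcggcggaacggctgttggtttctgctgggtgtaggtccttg
CDK1 entry 1: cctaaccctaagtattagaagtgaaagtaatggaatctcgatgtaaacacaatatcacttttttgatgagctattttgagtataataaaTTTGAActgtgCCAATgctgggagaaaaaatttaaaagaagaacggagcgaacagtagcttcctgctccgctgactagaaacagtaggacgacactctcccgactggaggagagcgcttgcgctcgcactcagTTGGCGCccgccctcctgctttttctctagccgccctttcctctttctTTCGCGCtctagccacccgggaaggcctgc
CDK1 entry 2: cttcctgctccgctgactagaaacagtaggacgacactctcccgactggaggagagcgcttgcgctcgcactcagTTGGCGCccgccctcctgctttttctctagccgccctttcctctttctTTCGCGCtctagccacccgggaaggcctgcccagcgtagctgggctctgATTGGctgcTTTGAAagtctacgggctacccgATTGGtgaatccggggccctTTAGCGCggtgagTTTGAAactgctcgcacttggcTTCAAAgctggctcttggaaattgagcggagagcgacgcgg
TOP2A: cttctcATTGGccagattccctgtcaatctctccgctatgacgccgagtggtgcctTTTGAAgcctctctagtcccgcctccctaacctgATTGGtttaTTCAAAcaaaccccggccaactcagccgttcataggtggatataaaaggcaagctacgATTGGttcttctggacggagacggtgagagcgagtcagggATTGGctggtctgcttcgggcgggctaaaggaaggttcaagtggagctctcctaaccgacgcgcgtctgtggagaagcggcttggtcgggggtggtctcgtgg
PLK1: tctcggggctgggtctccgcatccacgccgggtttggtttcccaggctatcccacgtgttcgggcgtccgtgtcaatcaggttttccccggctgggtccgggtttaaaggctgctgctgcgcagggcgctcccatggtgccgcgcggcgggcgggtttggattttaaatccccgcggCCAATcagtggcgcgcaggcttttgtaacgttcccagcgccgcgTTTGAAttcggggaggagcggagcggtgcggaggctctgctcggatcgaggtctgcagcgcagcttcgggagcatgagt

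CCAAT was found in the promoters of 7 of 7 members, against 34.6% of all 35116 RefSeq promoters of the same length. A CHR match was found in 4 of 7 (CDK1, MKI67, TOP2A and PLK1), against 16.4%, and an E2F match in 4 of 7 (CCNB1, CDK1, MKI67 and E2F1), against 13.5%. The PLK1 promoter carried its CHR match from base −29 and its CCAAT match from base −73 relative to the start. In MKI67 a CHR and a CCAAT match share a base. The forkhead motif TGTTTAC was found only in the first CDK1 entry, so in 1 of 7 members, against 3.42% of all promoters. The AP-1 motif TGANTCA was found in 0 of 7 members against 7.71% of all promoters, and the NF-kB motif GGGNNTTTC in 0 of 7 against 4.78%. Members were counted by gene over all their entries, whereas the shares of all promoters count each entry. Of 33 other cell-cycle genes, 24 had a RefSeq promoter in the table: 16 of these held CCAAT, 13 an E2F match and 9 a CHR match, 1 held the forkhead motif, and none the AP-1 or the NF-kB motif. These genes were not located in the peak lists, which hold no gene names. A match describes letters in the window and not a bound site. Only the forms named above were searched, so a promoter without a match may still hold another form of the motif.

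Every one of the 10 paired-end libraries held a peak at all 7 start sites, before and after induction of senescence and under both knockdowns. The strongest peaks at 6 genes covered the start itself in each of these libraries. Their summits lay close to it, between −94 and −6 bases for CCNA2, 32 and 65 for CCNB1, −28 and 31 for CDK1, −52 and −1 for PLK1, −125 and −67 for TOP2A, and −198 and −61 for E2F1. At MKI67, counted from the 1 hg19 start used here (base 129924468 of chromosome 10), the summits lay between −539 and −312 bases, and in 9 of 10 libraries the strongest peak ended upstream, between −279 and −197 bases. These distances depend on that coordinate, and the motif positions above are counted from the RefSeq start on GRCh38.p14 instead. Only in siFOXF1/2 replicate 1 did the MKI67 peak run across the start, to 337 bases beyond it. A separate, weaker MKI67 peak lay beyond the start in siFOXF1/2 replicate 2, between 220 and 432 bases with a fold of 4.36 by the authors' caller, and in Sen replicate 2, between 42 and 277 bases with a fold of 3.72. The authors' fold of the main MKI67 peak was 9.09 and 9.10 in these libraries.

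On hg19 the merged start-site regions of the paired-end libraries were chr4:122744100-122745511 for CCNA2, chr5:68462562-68463596 for CCNB1, chr10:62537776-62538496 for CDK1 and chr16:23689719-23690880 for PLK1. They were chr17:38573637-38574703 for TOP2A, chr10:129924036-129925700 for MKI67 and chr20:32273454-32274654 for E2F1. Each spans the first bases of its gene and the sequence just upstream.

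**Figure D1:**
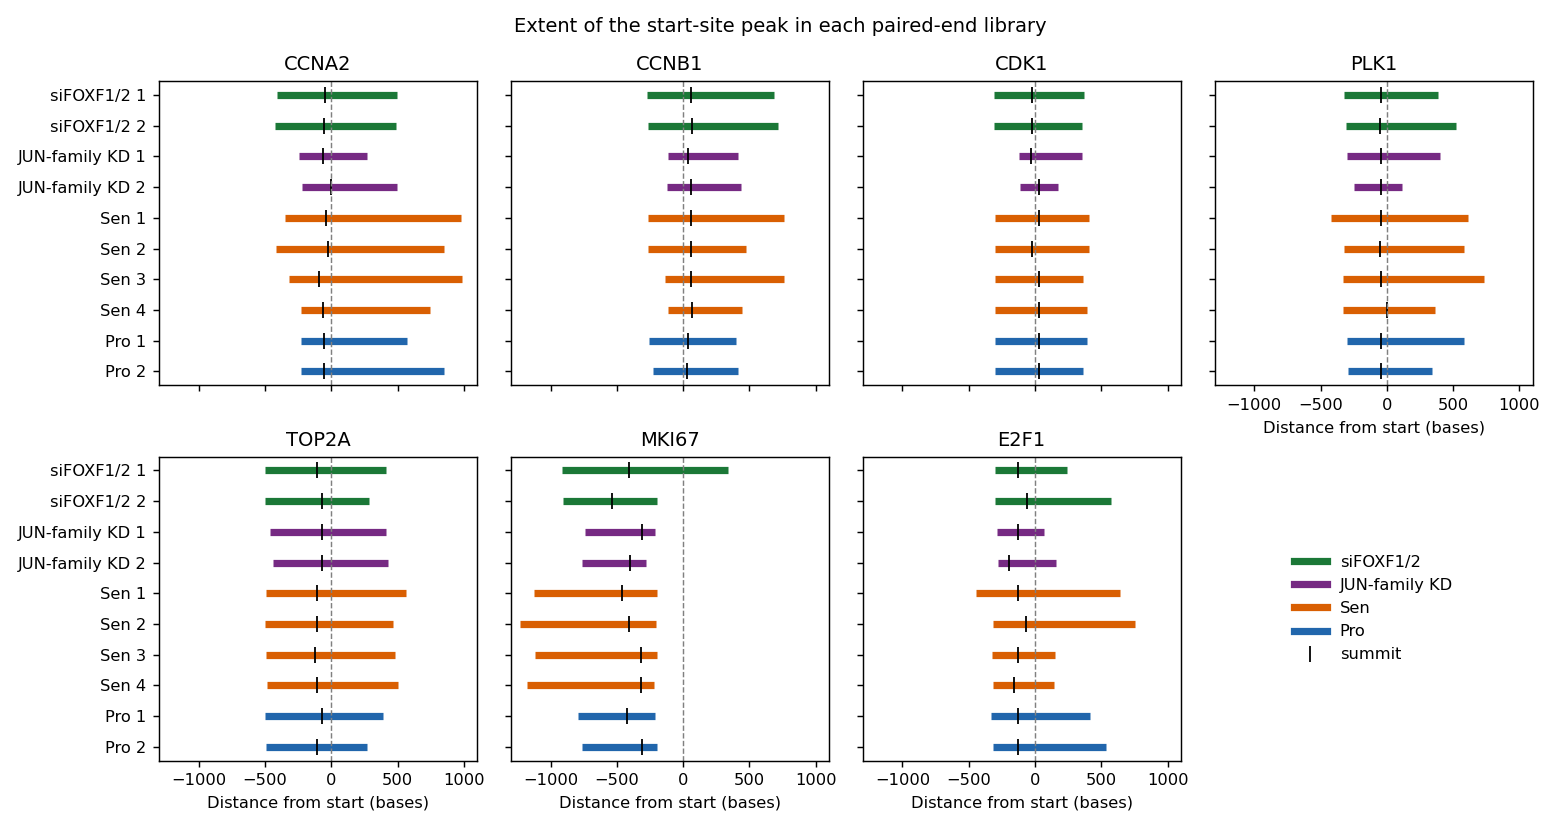
Extent of the strongest peak at each start site in the 10 paired-end libraries, as distance in bases from the start along the gene (negative: upstream). Each bar is 1 library and the tick is the summit. Bars of all genes but MKI67 cross the start in every library, whereas 9 of the 10 MKI67 bars end upstream of the hg19 start used for that gene.

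At 2 of the 7 genes, MKI67 and TOP2A, every Sen peak was broader than both Pro peaks, against 42.9% of the 49449 regions held by all Sen and Pro libraries. In 2.79% of those regions every Sen peak was narrower, and at 0 of the 7 genes. MKI67 peaks spanned 930, 1025, 924 and 958 bases in the 4 Sen libraries, against 584 and 568 bases in the 2 Pro libraries. They spanned 1253 and 711 bases with siFOXF1/2 and 526 and 487 bases with JUN-family knockdown. TOP2A peaks spanned 1060, 966, 972 and 986 bases in Sen libraries, against 892 and 760 bases in Pro libraries. Width was not tested. The median width of all peaks was 471, 459, 392 and 321 bases in Sen lists and 356 and 394 bases in Pro lists.

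As a stand-in for depth, background coverage across the genome was 1.74 to 3.08 for paired-end and 0.195 to 0.475 for single-end libraries. The level of a peak is given below as its summit coverage, recovered from the authors' fold and p-value, divided by that background. The lowest level at which a peak would be listed was computed at that background from the lowest −log10 p of each list. It was 4.58 to 6.31 among paired-end libraries and 14.7 to 25.7 among single-end ones. Where the local background is high, more coverage is needed. Each peak is also given as a percentile, its rank by the authors' fold among the 37957 regions that all 10 paired-end libraries held. The main test was limma on normal scores of these ranks, and limma on the log2 level, centred on the median of the same regions in each library, was an alternative. Both were two-sided with Benjamini-Hochberg adjustment over all regions and a threshold of 0.05. The siFOXF1/2, JUN-family knockdown and Pro comparisons share the same 4 Sen libraries. Bulk libraries cannot tell fewer open cells from less open chromatin per cell.

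The level at the start sites differed between genes in a stable order. TOP2A, CCNB1 and CDK1 held the 3 highest levels in every paired-end library, MKI67 the lowest, and CCNA2, E2F1 and PLK1 lay between them. By percentile CDK1 stood at 98.8 or above in all 10 libraries and CCNB1 at 93.7 or above. MKI67 stood between 6.20 and 38.7.

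Sen libraries were compared with Pro libraries to see what oncogene-induced senescence does to these promoters. None of the 7 start-site regions closed (listed in each Pro library but in none of Sen), while 3.96% of the 57309 regions held by both Pro libraries did. None opened, against 26.1% of the 76382 regions held by all Sen libraries. The main test, by rank, called CCNB1 alone as lower in Sen, where 16.4% of the 37957 regions were lower. By the alternative, the centred level, 4 of the 7 genes were lower in Sen, against 35.4% of these regions. These were CDK1, CCNA2, CCNB1 and TOP2A, while E2F1, PLK1 and MKI67 were not called.

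CDK1 stood at 65.4, 70.0, 75.6 and 65.1 times the background in Sen libraries, against 119 and 114 times in Pro libraries. All 4 Sen values lay below both Pro values, and the mean Sen level was 0.591 times the Pro level. On the centred log2 scale the difference was −0.67 ± 0.12 (SE; limma, adjusted p = 0.000677). By rank CDK1 stood at percentiles of 98.8 to 99.7 in Sen and of 99.6 and 99.7 in Pro libraries, near the top of every list. Its rank difference was not called (limma, adjusted p = 0.447).

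The cyclins showed the same direction of level. CCNA2 stood at 50.3, 43.2, 54.3 and 46.0 times the background in Sen libraries, against 72.9 and 78.4 times in Pro libraries. CCNB1 stood at 81.3, 77.6, 69.7 and 75.6 times in Sen libraries, against 107 and 116 times in Pro libraries. Neither gene's groups overlapped, and the centred log2 differences were −0.56 ± 0.14 for CCNA2 (SE; limma, adjusted p = 0.00484) and −0.46 ± 0.11 for CCNB1 (SE; limma, adjusted p = 0.00407).

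By rank CCNB1 was at percentiles of 97.3, 96.0, 94.0 and 98.2 in Sen libraries, against 99.5 and 99.2 in Pro libraries. The difference in normal score was −0.68 ± 0.21 (SE; limma, adjusted p = 0.0253). It was not called without Pro replicate 1 (adjusted p = 0.165), Pro replicate 2 (0.0773) or Sen replicate 3 (0.0617), all limma, and it changed sign to 0.10 when peaks were ranked by −log10 q. CCNA2 was at 61.6, 42.3, 84.3 and 74.1 in Sen libraries, against 82.2 and 79.2 in Pro libraries, and its groups overlapped.

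TOP2A stood at 81.6, 88.8, 87.0 and 88.5 times the background in Sen libraries, against 118 and 122 times in Pro libraries. The groups did not overlap, and the centred log2 difference was −0.38 ± 0.13 (SE; limma, adjusted p = 0.0225). That call was lost without Pro replicate 1, without Pro replicate 2 and without Sen replicate 1. Its percentiles of 73.6 to 89.8 in Sen and of 84.2 and 86.4 in Pro overlapped.

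E2F1 stood at 50.6, 66.4, 64.1 and 62.4 times the background in Sen libraries, against 64.9 and 98.1 times in Pro libraries. The Pro libraries differed from each other by more than the Sen libraries did, and the centred log2 difference of −0.31 ± 0.18 was not called (SE; limma, adjusted p = 0.169). Without Pro replicate 1 it was called lower in Sen by both measures. PLK1 ran from 42.1 to 52.4 times in Sen libraries, against 43.6 and 59.7 times in Pro libraries, and MKI67 from 20.3 to 24.5 times, against 20.1 and 28.8 times. The 95% interval of the centred log2 difference was −0.36 to 0.30 for PLK1 and −0.39 to 0.33 for MKI67.

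The level in every Sen library was below both Pro libraries at 4 of the 7 members, against 41% of the 49449 regions held by all Sen and Pro libraries. It was above both at 0 of 7, against 22.4%. Among the 37957 regions of the fit, the level was called lower in Sen at 35.4% and higher at 22%, so 4 of 7 members called lower and 0 called higher stand against a background in which such calls are common. The median centred difference was −0.38 over the members and −0.16 over all regions. Ranks were lower at 16.4% and higher at 15.8% of regions, beside 1 lower and 0 higher among the members. Without centring the median difference of all regions was −0.25, and the same 4 members were called lower, where 38.7% of regions were lower and 17.0% higher.

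Peak names inside the lists fall into separate styles, 1 shared by Pro, Sen replicates 1 and 2 and siFOXF1/2, the other by Sen replicates 3 and 4 and the JUN-family knockdown. With Sen replicates 1 and 2 alone, the same 4 genes were lower in level, where 34.8% of regions were lower. Ranks were lower at CCNA2 (−0.82 ± 0.24, SE; limma, adjusted p = 0.0250) and CCNB1 (−0.68 ± 0.22, SE; limma, adjusted p = 0.0364), where 16.5% of regions were lower. With Sen replicates 3 and 4 alone, levels were lower at 3 genes, without TOP2A (limma, adjusted p = 0.109), where 33.3% of regions were lower. No member was called by rank (CCNB1, limma, adjusted p = 0.0518, unadjusted p = 0.0154), where 14.6% of regions were lower. In that fit CCNB1 was the 1 of 7 members with an unadjusted rank p under 0.05, against 41.8% of regions. CCNA2 ranks moved with the naming style within Sen, at 61.6 and 42.3 in replicates 1 and 2 and at 84.3 and 74.1 in replicates 3 and 4.

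**Figure D2:**
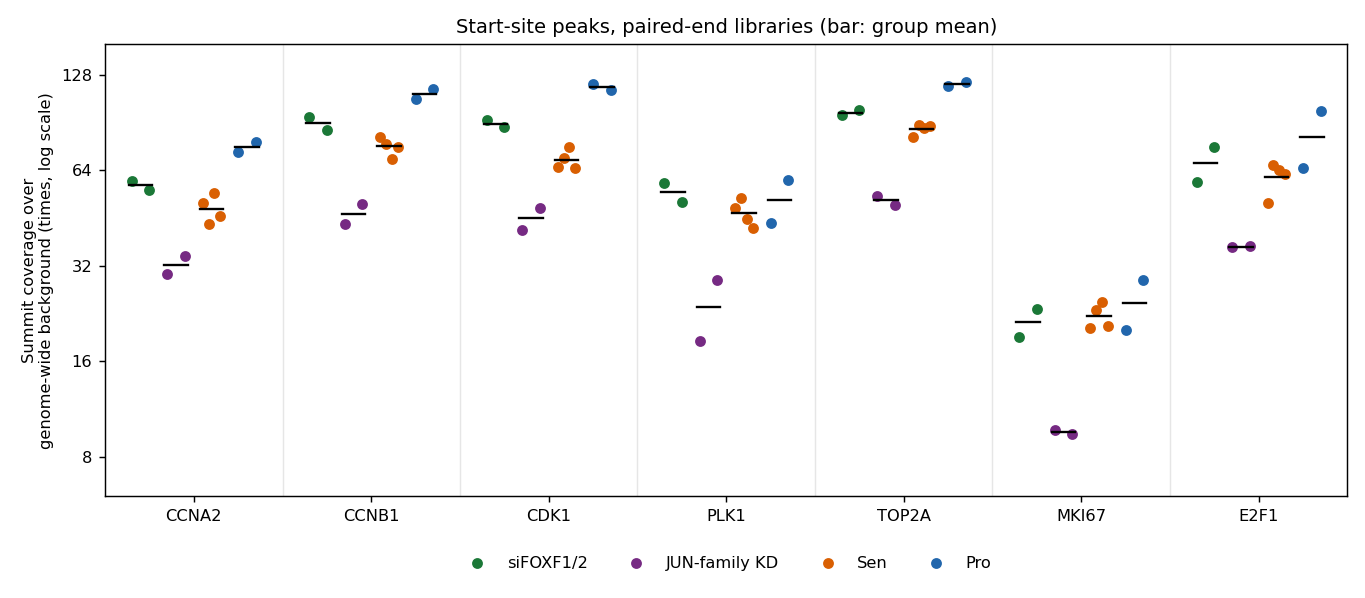
Summit coverage over the genome-wide background (times, log scale) at the 7 start sites in siFOXF1/2, JUN-family knockdown, Sen and Pro libraries. Each point is 1 library and the bar is the group mean. Sen points lie below Pro points at CCNA2, CCNB1, CDK1 and TOP2A, and JUN-family knockdown points lie below Sen points at all 7 genes.

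The comparison of siFOXF1/2 with Sen libraries asked what loss of the forkhead factors FOXF1 and FOXF2 does to the senescent state of these promoters. No start-site region closed, against 8.10% of the 76382 regions held by all Sen libraries. limma called none of the 7 by rank or by centred level, and none had an unadjusted p under 0.05 by either measure. Among all regions, 4.27% were called lower and 3.93% higher by rank, and 11.3% lower and 9.20% higher by level. An unadjusted p under 0.05 was found at 24.3% of regions by rank and at 32.6% by level.

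CDK1 stood at 91.8 and 87.7 times the background with siFOXF1/2, against 65.4, 70.0, 75.6 and 65.1 times in Sen libraries. These values did not overlap, nor did those of CCNA2, CCNB1 and TOP2A, which were higher with siFOXF1/2 by 1.19, 1.18 and 1.12 times on average. Both siFOXF1/2 libraries thus lay above all Sen libraries at 4 of 7 members, against 46.1% of the 65257 regions held by all libraries of both groups, and below them at 0 of 7, against 8.77%. The level of all regions was higher as well, with a median log2 difference of 0.26 before centring. Centred, the CDK1 difference was 0.13 ± 0.12 (SE; limma, adjusted p = 0.487). Not centred, it was 0.38 ± 0.13 and was called (SE; limma, adjusted p = 0.0488), where 22.6% of regions were called higher and 5.25% lower.

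CCNA2 reached 59.3 and 55.6 times the background with siFOXF1/2, against 43.2 to 54.3 times in Sen libraries, and CCNB1 reached 94.1 and 85.7 times, against 69.7 to 81.3 times. Values of E2F1, PLK1 and MKI67 overlapped between the groups. With Sen limited to replicates 1 and 2, the lists named like those of siFOXF1/2, limma called no member by rank or centred level. There 2.22% of regions were lower and 2.05% higher by rank, and 8.11% and 7.21% by level. No member had an unadjusted p under 0.05, against 19.6% of regions by rank and 28.6% by level. With replicates 3 and 4, none was called, where 8.36% of regions were lower and 9.07% higher by rank, and 14.6% and 12.8% by level. CCNA2 and TOP2A were lower in rank at an unadjusted p under 0.05 (limma, adjusted p = 0.0864 and 0.0572), 2 of 7 members against 33.2% of regions. The 95% intervals of the centred log2 differences ran from −0.30 to 0.30 for CCNA2, from −0.25 to 0.24 for CCNB1 and from −0.67 to 0.05 for MKI67.

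Regions that opened with siFOXF1/2 lay away from the start sites. TOP2A gained a peak inside the gene, 2475 to 2788 bases after its start, on chromosome 17 at 38571414 to 38571727 (hg19). E2F1 gained one upstream, between −3977 and −3598 bases from its start, on chromosome 20 at 32277808 to 32278187 (hg19), on the side of PXMP4, the next protein-coding gene in RefSeq. Both peaks were in both siFOXF1/2 libraries and in none of the other 8 paired-end libraries.

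The E2F1 flanking peak stood at 39.0 and 36.3 times the background with siFOXF1/2, against 58.9 and 75.8 times at the E2F1 start site in the same libraries. The authors' fold over the local background was 7.10 and 5.39. The TOP2A flanking peak stood at 26.4 and 23.9 times with siFOXF1/2, and the authors' fold there was 4.1 and 3.64. The lists hold no coverage at places without a peak, so the size of the difference from Sen libraries is not known.

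Opening is common with siFOXF1/2: 9.70% of the 90946 regions held by both libraries opened, against 2 of 9 member regions. Of the 8824 opened regions, 83.6% had a peak in no other paired-end library. By the lowest −log10 q of the siFOXF1/2 libraries, the E2F1 flank ranked 1836 and the TOP2A flank 6616 among the 8824. Neither peak count has a test, and the genome sequence under them on hg19 was not used here.

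JUN-family members are subunits of AP-1, a transcription factor that opens enhancers in senescent cells. After their knockdown all 7 start-site regions kept their peaks, while 31.6% of the 76382 regions held by all Sen libraries closed. None of the members opened, against 5.91% of the 51626 regions held by both knockdown libraries. Levels were lower than in Sen at all 7 genes, as they were over the lists as a whole.

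MKI67 stood at 9.74 and 9.45 times the background with JUN-family knockdown, against 20.3, 23.2, 24.5 and 20.7 times in Sen libraries. PLK1 stood at 18.5 and 28.8 times with knockdown, against 48.6, 52.4, 44.8 and 42.1 times in Sen libraries. CDK1 stood at 41.6 and 48.7 times with knockdown, against 65.1 to 75.6 times in Sen libraries. Both knockdown libraries lay below all Sen libraries at 7 of 7 genes, against 83.8% of the 43819 regions held by all libraries of both groups, and above them at 0 of 7, against 2.05%. Mean levels were 0.433 (MKI67) to 0.666 (CCNA2) times those in Sen.

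The median log2 difference over all 37957 regions was −0.79, and the uncentred level was called lower at 86.5% of them and higher at 1.35%. All 7 members were called lower on that scale, from −0.58 for CCNA2 to −1.20 for MKI67. Once each library was centred on its median region, limma called none of the 7, where 13.2% of regions were lower and 15.8% higher. None of the 7 had an unadjusted p under 0.05, against 41.3% of regions. The centred log2 differences were 0.28 ± 0.14 for CCNA2 (SE; limma, adjusted p = 0.146), 0.25 ± 0.12 for CDK1 (adjusted p = 0.137) and −0.34 ± 0.17 for MKI67 (adjusted p = 0.141).

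By rank the members pointed both ways and none was called, where 15.8% of regions were lower and 17.8% higher. TOP2A stood at percentiles of 96.2 and 91.1 with knockdown, against 73.6, 77.6, 89.8 and 87.9 in Sen libraries (0.60 ± 0.23 in normal score, SE; limma, adjusted p = 0.0574). MKI67 stood at 19.2 and 6.20, against 26.3 to 38.7 in Sen libraries (−0.67 ± 0.25, SE; adjusted p = 0.0551). PLK1 stood at 36.2 and 65.9, against 73.1 to 76.3 (−0.62 ± 0.24, SE; adjusted p = 0.0588). At an unadjusted p under 0.05, 4 of 7 members were counted, CCNA2 and TOP2A higher and MKI67 and PLK1 lower, against 45.0% of all regions.

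With Sen limited to replicates 3 and 4, the lists named like those of the knockdown, no member was called by either measure. There 10.9% of regions were lower and 10.2% higher by rank, and 9.90% and 12.6% by level. MKI67 and PLK1 by rank and MKI67 by level had an unadjusted p under 0.05, where 36.5% of regions did by rank and 35.6% by level. With Sen limited to replicates 1 and 2, CCNA2 (0.99 ± 0.24, SE; limma, adjusted p = 0.00804) and TOP2A (0.86 ± 0.22, SE; adjusted p = 0.0106) were higher in rank, where 21.3% of regions were, and CCNA2 and CDK1 in centred level, where 20.1% were. Leaving out Sen replicate 3 gave the same 2 rank calls, and leaving out Sen replicate 4 gave TOP2A. The share of all regions called was not counted for these fits. Leaving out a knockdown replicate leaves 1 library in that group, and no call is read from it here.

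**Figure D3:**
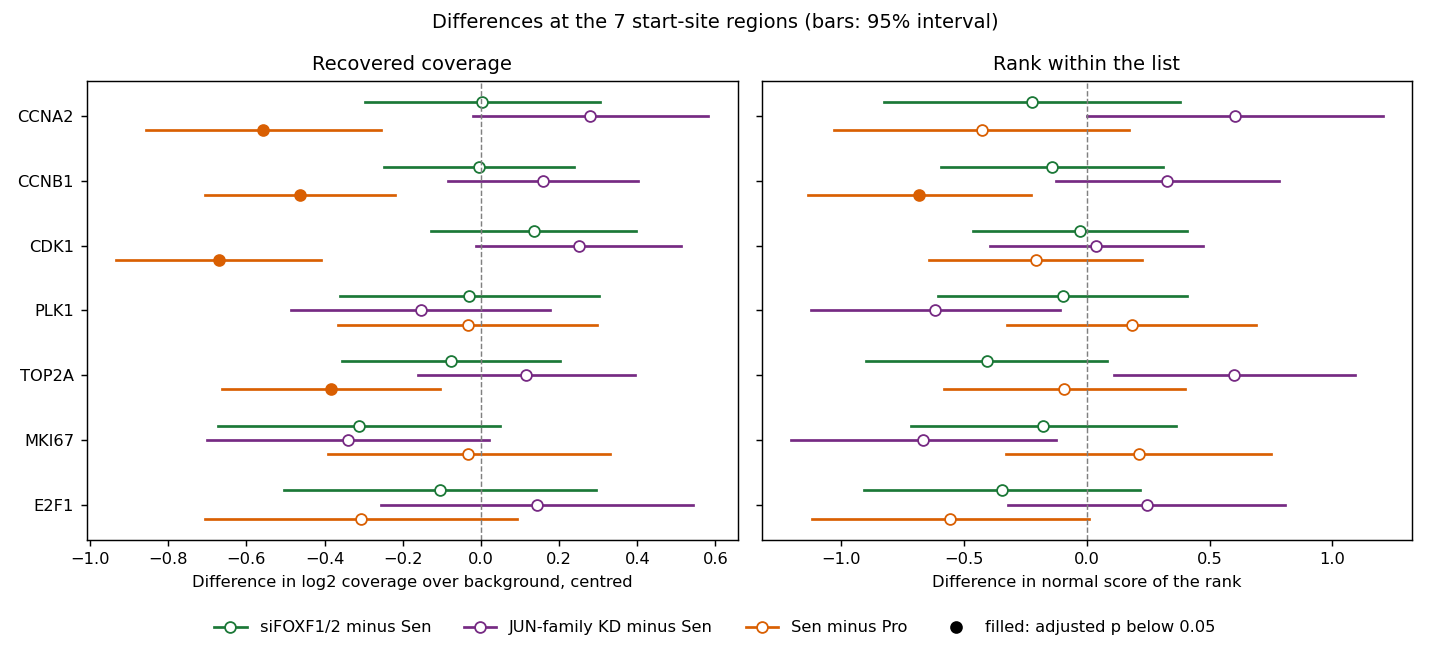
Differences at the 7 start-site regions for siFOXF1/2 minus Sen, JUN-family knockdown minus Sen, and Sen minus Pro. The left panel shows the centred log2 level and the right panel the normal score of the rank; points are limma estimates, bars are 95% intervals and filled points have an adjusted p below 0.05. Filled points occur only for Sen minus Pro, at CCNA2, CCNB1, CDK1 and TOP2A on the left and at CCNB1 on the right.

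The single-end libraries addressed the coactivators p300 and CBP and the NF-kB subunit p65, and are shallower. The start-site regions of CCNB1, CDK1 and TOP2A had a peak in all 6 libraries. Those of CCNA2, E2F1 and PLK1 had one in 5 of 6 and lacked it in sip65 replicate 2, whose list was the shortest at 17899 peaks. MKI67 had a peak in sip65 replicate 1 and Sen replicate 1 only, at 25.5 and 56.4 times the background. The computed lowest level for a listed peak was 19.1 and 21.7 times in these libraries, and 14.7 to 25.7 times over all single-end libraries. The lists hold no coverage at places without a peak, so the MKI67 level in the other 4 libraries is not known. Its absence from those lists alone does not show closed chromatin, and the reason for it was not tested.

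With sip300/CBP, none of the 6 member regions held by both Sen libraries closed, against 17.4% of the 45431 regions held by both. None opened, against 13.1% of the 40858 regions held by both sip300/CBP libraries. With sip65, none of the 6 closed, against 29.6%, and none opened, against 1.53% of the 16314 regions held by both sip65 libraries. Without sip65 replicate 1, the count of closed members was 3 of 6 (CCNA2, E2F1 and PLK1), since replicate 2 lacks those peaks. In that setting 29703 of the 45431 regions closed. A peak upstream of PLK1, between −1619 and −1510 bases, was listed in sip300/CBP replicate 2 alone, at 51.1 times the background. The neighbouring gene on that side, DCTN5, lies 1.4 kb from PLK1 in RefSeq, so the peak may lie inside DCTN5.

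Levels overlapped between groups at most genes. CDK1 stood at 83.3 and 57.9 times the background with sip300/CBP and at 63.8 and 87.2 times with sip65, against 73.7 and 63.1 times in Sen libraries. TOP2A stood at 90.8 and 61.3 times with sip300/CBP and at 63.8 and 71.8 times with sip65, against 65.1 and 67.3 times in Sen libraries. CCNB1 stood at 94.6 and 54.5 times with sip300/CBP and at 92.5 and 87.2 times with sip65, against 95.4 and 69.4 times in Sen libraries. Replicates of 1 group differed about as much as groups did.

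Of the 6 members held by all sip300/CBP and Sen libraries, 1 (CCNA2) lay lower in both sip300/CBP libraries than in both Sen libraries, against 5.53% of 29359 such regions, and 1 (PLK1) lay higher, against 16.2%. With sip65, 0 of 3 lay lower in both libraries, against 8.88% of 15014 regions, and 0 of 3 higher, against 10.6%. CCNA2 stood at 49.2 and 44.3 times with sip300/CBP, against 52.1 and 56.8 times in Sen libraries. PLK1 stood at 79.5 and 57.9 times with sip300/CBP, against 56.4 and 44.2 times in Sen libraries. Neither was in the main fit, which needs a peak in all 6 libraries. In a fit of the sip300/CBP and Sen libraries alone, limma called none of the 6 members by rank, where 0.00681% of 29359 regions were lower. None of the 6 had an unadjusted p under 0.05, against 10.2% of regions.

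The 3 genes in the main single-end fit were not called in either comparison, and none had an unadjusted p under 0.05. By rank that fit called 0.00805% of 12424 regions in each comparison. By level it called 0.837% for sip300/CBP and 0.00805% for sip65. An unadjusted p under 0.05 was found by rank at 7.48% of regions for sip300/CBP and 8.65% for sip65, and by level at 13.2% and 8.66%. The lack of a call at the 3 genes therefore does not set them apart from other regions. Why so few regions were called was not tested. The 95% interval of the centred log2 difference for CDK1 was −0.51 to 0.40 with sip300/CBP and −0.32 to 0.60 with sip65.

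**Figure D4:**
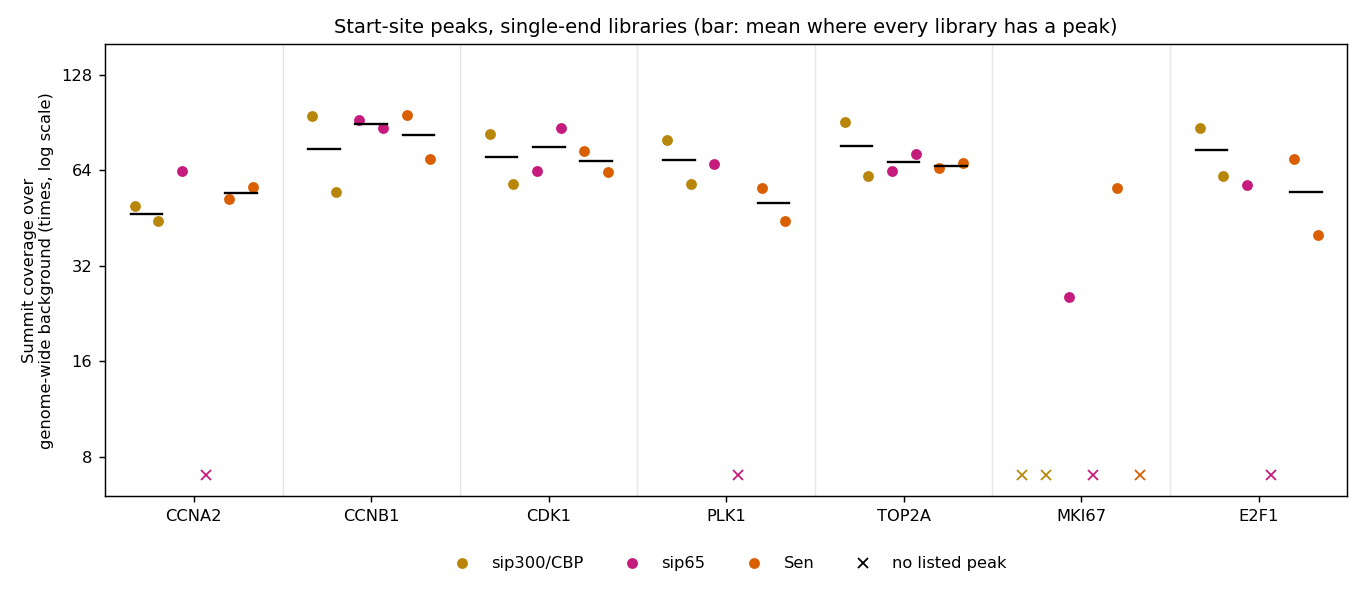
Summit coverage over the genome-wide background (times, log scale) at the 7 start sites in sip300/CBP, sip65 and Sen single-end libraries. Each point is 1 library, bars are means where every library of the group has a peak, and crosses near the bottom mark libraries with no listed peak, which have no value. Replicates of a group spread about as widely as the groups.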

How the data were processed

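ATAC-seq libraries were sequenced as 75-bp single reads or 35-bp pairs, per the labels' protocols. The submitters' processing notes name MACS2 2.1.1, Bowtie2 2.3.4.1, deepTools 3.1.1, SAMtools 1.9 and hg19, without roles. How reads were shifted or duplicates removed is not given in the sources used here. The authors deposited 1 peak list for each library. Each deposited list holds a fold enrichment ratio, −log10 p and −log10 q values, a score (not used) and a summit offset. The lowest deposited −log10 q was just above 4 in every list.

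Peaks on chromosomes 1 to 22 and X overlapping by at least 1 bp were merged per layout. The start-site region overlaps the start or is the nearest within 1 kb, and values are those of its strongest peak by fold. Whole summit coverage was recovered by solving the MACS2 fold and Poisson p equations, within 0.002 in −log10 p (wider above a −log10 p of 10), for 100% of peaks. Background coverage was the 1st percentile of the local background. Read totals are not in the lists. Regions held by every library of a layout (37957 and 12424) entered limma 3.58.1 (R 4.3.3) with group means. Groups are small, so all groups of a layout shared the spread. The code was tested on simulated data. Same-numbered replicates do not share a named source.

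All 7 members are named. The members, the motif list, the 33 further genes and the measures were chosen with earlier results of these data known. Alternatives were a −log10 q of at least 5, 500 bp summit windows, a 1 kb window, ranking by −log10 q, recovered coverage, the groups compared alone, a replicate block, Sen subsets and leaving out each library. Coverage fits under these alternatives and without centring were added after seeing the data.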

Additional observations from a re-analysis of the deposited data

Results flagged for a closer look

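Among 21 sets of 4 Sen libraries, 3 had a library far from the others by Dixon's ratio, where chance flags about 1 in 20 sets. The CCNA2 peak was 975 bases wide in Sen replicate 4 (ratio 0.837). MKI67 stood at percentile 38.7 in Sen replicate 3 (ratio 0.912). PLK1 stood at percentile 76.3 in Sen replicate 2 (ratio 0.843), where the 4 libraries spanned 73.1 to 76.3.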

How the results depend on the processing

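The rank test called 1 of 7 members lower in Sen than in Pro libraries. It called 0 when peaks were ranked by −log10 q, where CCNB1 reversed to 0.10 (limma, adjusted p = 0.73), 4 with recovered coverage, 2 (CCNA2 and CCNB1) with Sen replicates 1 and 2 only, 0 with Sen replicates 3 and 4 only, and 0 to 1 when leaving out a library; without Pro replicate 1 the call was E2F1 (−1.03, adjusted p = 0.0345). For recovered coverage the count was 3 or 4 throughout, and CCNA2, CCNB1 and CDK1 were called in each of these fits. The 2 flanking regions opened by siFOXF1/2 became 0 in a 1 kb window, which does not reach them, and coverage that was not centred called 1 member (CDK1) in that comparison. For JUN-family knockdown, rank calls numbered 2 with Sen replicates 1 and 2 only, against 0 with all, and spanned 0 to 2 when leaving out a library; coverage calls numbered 7 without centring and 2 with Sen replicates 1 and 2 only. Leaving out a library gave 0 to 1 closed members for sip300/CBP (MKI67, without Sen replicate 2) and 0 to 1 opened (the PLK1 flank, without sip300/CBP replicate 1). It gave 0 to 3 closed for sip65 (3 without sip65 replicate 1). In the settings named, 12370 of 53905 regions closed, 7812 of 46007 opened and 29703 of 45431 closed. For limma calls, the share of all regions was not counted when a library was left out. Of 378 gene-level alternatives, 359 stayed on the same side of the threshold, 4 lost a call (all CCNB1 in Sen against Pro), 14 gained one and 1 reversed. The sign changed in 29 of the alternatives, the reversed one included. With 500 bp windows MKI67 left the fit. The cause of these changes was not tested. Single-end libraries are shallower, and how far that limited the calls there was not tested.

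Replicate numbers were not shown to pair the samples: deviations of same-numbered libraries correlated at −0.068 to 0.114 over paired-end regions, with 2 pairs in each comparison. Among paired-end groups only Sen had replicate numbers above 2. With the replicate block, those Sen libraries therefore did not bear on the comparisons. The block fit nearly repeated the fit with Sen replicates 1 and 2 only. For Sen over Pro, rank differences were −0.817 and −0.816 at CCNA2, and −0.676 in both fits at CCNB1. The block was thus neither a separate check on pairing there nor a separate alternative among those counted above. With the block, rank calls numbered 2 (CCNA2 and CCNB1 lower) for Sen over Pro and 2 (CCNA2 and TOP2A higher) for JUN-family knockdown. Coverage called 1 (CCNA2 higher) for the knockdown, and no other count changed.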
